A study of Mus musculus with 192 samples.

Results

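Wnt1, Wnt3a, Wnt5a, Wnt10b and Ctnnb1 were the 5 genes taken from the 96 assays of a single-cell quantitative PCR panel, matched by gene name without regard to case, and each was read by 1 assay (Mm01300555_g1, Mm01349398_m1, Mm00437347_m1, Mm00442104_m1 and Mm00517812_m1 in that order). In this naming an m1 probe spans an exon junction, while a g1 assay, here that of Wnt1, may also read genomic DNA. The first 4 encode secreted Wnt ligands and Ctnnb1 encodes beta-catenin. The cells came from dorsal skin wounds of recipient mice lacking endothelial Cxcl12 (EKO) and of wild-type (WT) recipients, Cxcl12 being a chemokine that attracts blood progenitors. Every recipient had been parabiosed, that is surgically joined so that the circulations mix, to a donor mouse that carried green fluorescent protein (GFP), and lineage-negative, GFP-positive cells were sorted. The genotype is therefore that of the recipient, while the sort selected for the label of the donor. The promoter behind the endothelial deletion, the number of animals, their age and the day of harvest are not given in the labels used here. The purpose of the study was to characterise the progenitors recruited under each genotype.

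There were 96 EKO and 96 WT cells, divided into a set A and a set B that each hold 48 per genotype. The deposited value is the threshold cycle (Ct), which is lower at a higher level, by about 1 cycle for each doubling. A reaction was taken as detected below Ct 40, and levels were compared only within an assay. Cells detected 4 to 70 of the 96 assays with a median of 23, and the number detected is called the yield below. Shares refer to the 170 cells with at least 10 assays (77 EKO and 93 WT) unless another population is named. Their median yield was 34 in EKO and 21 in WT cells. Animals are not named in the labels, which makes each genotype 1 sample without a replicate check: no difference was tested, and the 95% intervals (exact Clopper-Pearson) cover counting error only. In each set the EKO cells bear numbers 49 to 96 and the WT cells 1 to 48, so genotype and position cannot be told apart.

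Wnt ligands are lipid-modified proteins that act over short distances on Frizzled receptors. In the canonical branch, binding together with an Lrp co-receptor stops the degradation of beta-catenin, which then enters the nucleus and acts with Tcf and Lef factors on target genes. Beta-catenin also joins cadherins to the actin cytoskeleton at cell contacts. Wnt1, Wnt3a and Wnt10b are best known as canonical ligands, and Wnt10b has been studied in hair follicles, bone and fat. Wnt5a is best known for signalling through Ror receptors without beta-catenin, and is made by many mesenchymal cells. Because beta-catenin is controlled mainly through the stability of the protein, its mRNA is no measure of pathway activity. Wnt1 and Wnt10b are direct neighbours on their chromosome, with 0 genes between them in the RefSeq table of GRCm38.p6.

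Over all 192 cells Wnt3a was detected in 134 (69.8%), Ctnnb1 in 66 (34.4%), Wnt5a in 22, Wnt10b in 8 and Wnt1 in 4. All cells that detected Ctnnb1, Wnt5a, Wnt10b or Wnt1 had a yield of at least 24, whereas Wnt3a was found at every yield. Absence under 24 assays was not particular to these genes. Jag1, in 45 cells of at least 24 assays, and Birc5, in 29, were also detected in 0 of the 97 cells below. In the other direction, 7 assays, Wnt3a among them, were detected at least as often below 24. With 8 and 4 detecting cells, Wnt10b and Wnt1 were too rare to tell such an absence from low detection alone.

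Wnt1, a ligand known chiefly from the developing nervous system, was read in 1 cell of each genotype in each set. The Ct was 20.9 in the EKO cell of set A, 18.6 in the EKO cell of set B, 20.8 in the WT cell of set A and 18.8 in the WT cell of set B. Within each set the EKO and the WT value lay within 0.2 cycles of each other. All 4 cells also detected Ctnnb1, as did 62 of the 91 other cells with a yield of at least 24 (68.1%). Of the 4 Wnt1 cells, 3 had a Col1a1 Ct below 16.

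Wnt10b was read in 2 EKO and 6 WT cells. The EKO cells, both of set A, had Ct 18.8 and 19.9. The WT cells of set A had Ct 18.5, 20.4, 20.5 and 30.7, and those of set B had 20.2 and 20.9. The cell at 30.7 is later than the other 7, which lie between 18.5 and 20.9 and overlap between genotypes. In 7 of the 8 Wnt10b cells Ctnnb1 was detected as well, against 59 of the 87 other cells with a yield of at least 24 (67.8%). At 40 or more assays it was in 6 of 7 cells with Wnt10b (85.7%) and 43 of 52 without (82.7%). A single cell, of WT set B, detected both neighbouring ligands Wnt1 and Wnt10b.

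Wnt3a, a ligand used widely to maintain stem cells in culture, was the most common of the 4 ligands and was read at every yield. It was detected in 16 of 22 cells with under 10 assays (72.7%), 56 of 75 with 10 to 23 (74.7%), 25 of 36 with 24 to 39 (69.4%) and 37 of 59 with 40 or more (62.7%). Its median Ct in these bins was 20.3 ± 3.40, 20.5 ± 1.38, 20.7 ± 2.08 and 20.4 ± 2.60 (SD over detecting cells). Over the same bins the median Ct of Actb, the beta-actin reference gene, was 20.5, 15.3, 9.62 and 10.3. The intervals of the Wnt3a shares overlapped between all bins and its medians differed by less than an SD, over bins between which the median Ct of Actb differed by about 10 cycles. Rn18s, the 18S ribosomal RNA, had a median Ct of 7.65, 6.64, 5.385 and 5.41 over these bins.

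**Figure D1:**
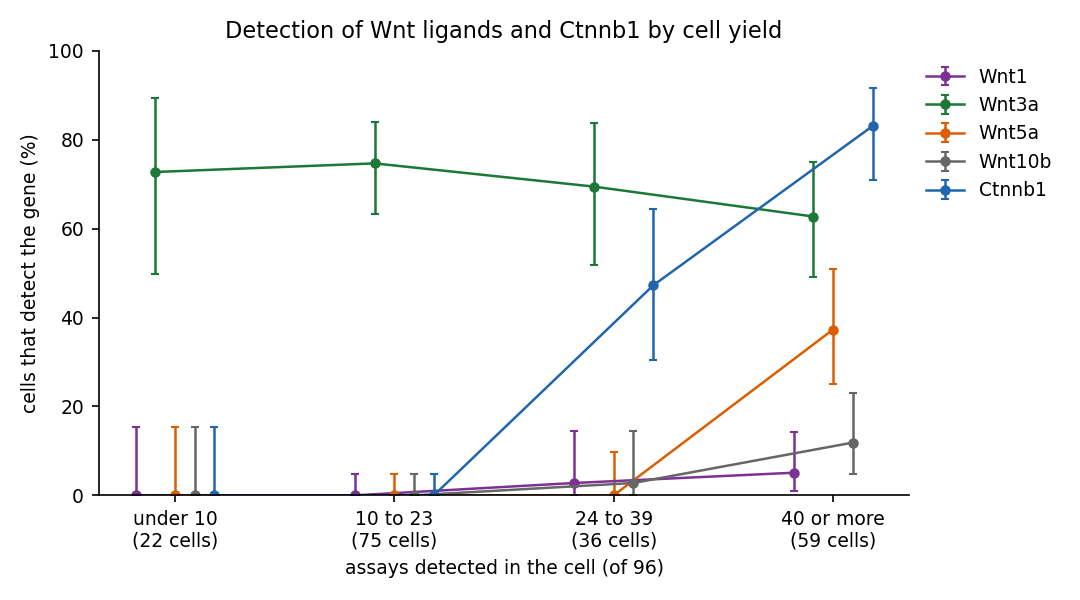
The x axis gives the number of assays detected in a cell, in 4 bins, and the y axis the percentage of cells that detect each gene, with exact 95% intervals. Wnt3a lies between 62.7% and 74.7% in every bin, while Ctnnb1 is at 0 in the first 2 bins and at 83.05% in the last.

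High-yield cells (24 or more assays) minus low-yield cells (10 to 23) gave -9.40 percentage points for Wnt3a, the lowest of 96 differences (set A -4.56, set B -14.2). The median difference over all assays was 25.1 points. Wnt3a was 1 of 7 assays detected at least as often in the 97 cells under 24 assays as in high-yield cells. Another was Sox2, a stem cell factor, at 77.9% of high-yield and 85.6% of the other cells. Under a size rule (10 points or more, in one direction in set A and in set B), 72.9% of the assays were more often detected in high-yield cells and 0% less often. Of the 5 genes, 2 met the rule as higher, Ctnnb1 and Wnt5a (23.2 points), and 0 met it as lower. Wnt10b differed by 8.42 points and Wnt1 by 4.21. The 5 genes are themselves a part of the yield, and counting it over the other 91 assays left all 5 differences with the same sign.

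Ctnnb1, the intracellular mediator of canonical signalling, was read in high-yield cells alone. It was detected in 0 of the 97 cells with under 24 assays, which allows a share of up to 3.09%, in 17 of 36 cells with 24 to 39 (47.2%) and in 49 of 59 with 40 or more (83.05%, 71.03 to 91.6%). Among the 45 assays that at least 50% of high-yield cells detected, it was the 1 assay with no detecting cell under 24, and 16 of the 45 were at 5% or less there. This depends on the 50% limit, as assays below it, such as Jag1 (47.4% of high-yield cells) and Birc5 (30.5%), had no such cell either. High-yield cells exceeded low-yield cells by 69.5 points (set A 69.4, set B 69.6), which ranked 8 of 96. In detecting cells the median Ct was 20.9 ± 1.89 at 24 to 39 assays and 20.3 ± 1.90 at 40 or more, so its level differed by less than the SD between the bins.

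**Figure D2:**
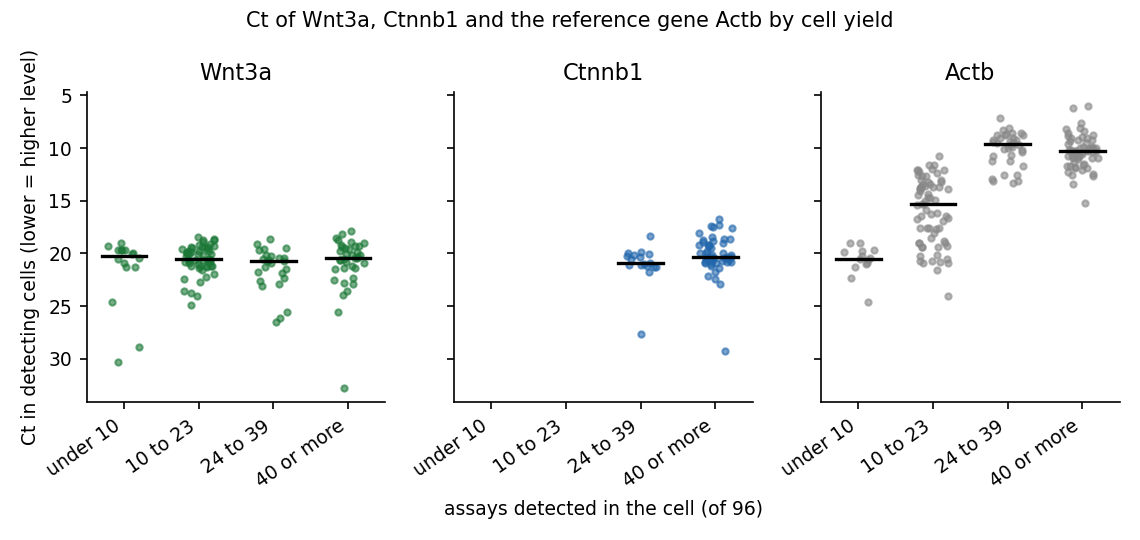
Each point is the Ct of 1 detecting cell, with lower Ct (a higher level) at the top, by bin of assays detected, and bars mark medians. Wnt3a stays near Ct 20 to 21 in all 4 bins, Ctnnb1 has no point in the first 2 bins, and the median of Actb lies at 20.5 in the first bin and 10.3 in the last.

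Wnt5a was read almost entirely in cells with a high collagen level. Cells were divided by Col1a1, a fibrillar collagen chain made by mesenchymal cells, and Ptprc, the pan-leukocyte protein CD45. Collagen-high cells (Col1a1 Ct below 16) numbered 46, and 71 other cells detected Ptprc. Of the 22 Wnt5a cells, 21 were collagen-high, which is 45.7% of that class (30.9 to 60.99%). In the 71 cells with Ptprc and no high collagen it was detected in 0, which allows a share of up to 4.23%, and in the 53 cells with neither it was detected in 1. That cell, of EKO set B, did not detect Col1a1 and had a Wnt5a Ct of 16.7 at a yield of 40.

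The labels of these classes were checked against their markers. No kept cell lay within 1 cycle of the Col1a1 limit, as the latest value below it was 14.3 and the earliest above it 17.04, and 48 further cells detected Col1a1 above it. Col1a1 and Ptprc, which define the classes, were left out of the marker counts. Collagen-high cells detected a median of 5 of the 6 other mesenchymal markers (range 4 to 6), against 1 (0 to 3) in the cells with Ptprc and no high collagen. They also detected a median of 1 of the 4 other leukocyte and myeloid markers (0 to 2), against 1 (0 to 4), and of 3 of the 5 haematopoietic progenitor markers (2 to 4), against 1 (0 to 5). Of these 5, Ly6a was in 97.8% of collagen-high and 81.7% of those Ptprc cells, Cd34 in 89.1% and 12.7%, and Runx1 in 97.8% and 46.5%. Kit went the other way (8.70% and 29.6%), and Gata2 was rare in both (4.35% and 2.82%). Endothelial markers stood at a median of 1 of 6 (0 to 4) in collagen-high cells and 0 of 6 (0 to 6) in those Ptprc cells. Cells with neither also stood at 0 of 6 (0 to 6). The class of Ptprc cells and that with neither therefore each held some cell with all 6 endothelial markers. Of the 46 collagen-high cells 31 detected Ptprc, although the sort was lineage-negative. The labels used here do not name the antigens of that sort. Whether such reactions held the RNA of more than 1 cell was not tested, and no doublet caller was run. Wnt5a was detected in 9 of the 15 collagen-high cells without Ptprc (60%) and in 12 of the 31 with it (38.7%), and these intervals overlapped.

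Yield differed between the classes, with a median of 52 assays in collagen-high cells, 28 in Ptprc cells without high collagen and 15 in cells with neither. Collagen-high cells detected Ctnnb1 in 37 of 46 cells (80.4%), against 25 of 71 Ptprc cells without high collagen (35.2%), which is 45.2 points more (set A 47.3, set B 41.2). Wnt5a differed by 45.7 points (43.5 and 47.8) and Wnt10b, in 6 and 2 cells, by 10.2 (19.4 and 0.90). These 3 of the 5 genes met the size rule as higher in collagen-high cells and 0 as lower, among 94 assays of which 55.3% met it as higher and 7.45% as lower. Wnt3a was detected in 28 of 46 collagen-high cells (60.9%) and 48 of 71 Ptprc cells (67.6%), and its sets disagreed (set A -16.5 points, set B 1.499). Wnt1 was detected in 3 collagen-high cells and 1 Ptprc cell.

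Among cells of at least 40 assays, which leaves 45 collagen-high and 9 Ptprc cells, the class difference of Wnt5a was as large and that of Ctnnb1 changed sign. Wnt5a was detected in 46.7% of these collagen-high cells and in 0 of the 9 Ptprc cells, a difference that ranked 5 of 94. Counting alone allows a share of up to 33.3% in those 9 cells. Ctnnb1 was detected in 80% of the collagen-high cells (65.4 to 90.4%) and in all 9 Ptprc cells, which is -20 points (set A -21.7, set B -18.2). These 9 Ptprc cells are spread over both sets, so each set value rests on few cells and counting error is large. Under this yield 1 of the 5 genes met the size rule as higher and 1 as lower, against 19.1% and 13.8% of 94 assays. Within Ptprc cells Ctnnb1 was in 16 of 33 at 24 to 39 assays (48.5%). Wnt10b stood at 13.3% in collagen-high and 11.1% in Ptprc cells of at least 40 assays, and Wnt3a at 62.2% and 66.7%, with its sets opposed (set A -35.5 points, set B 43.9).

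**Figure D3:**
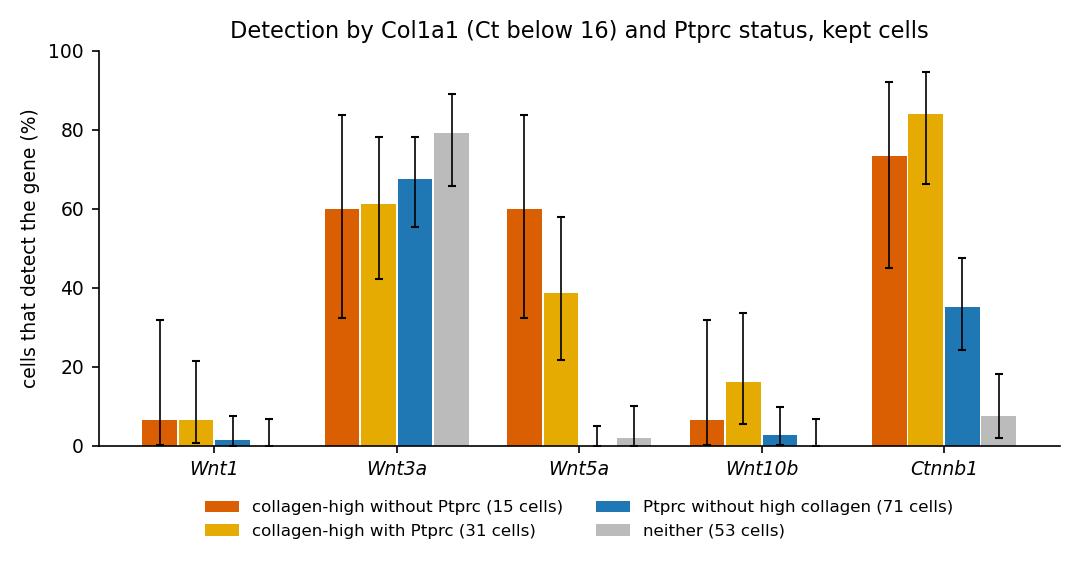
Bars give the percentage of kept cells that detect each gene, with exact 95% intervals, in 4 classes by Col1a1 Ct below 16 and Ptprc detection. Wnt5a is at 60% and 38.7% in the collagen-high classes and at 0 in Ptprc cells without high collagen, while Wnt3a is at 60% or more in all 4 classes.

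The assays most like each gene were ranked by phi, the correlation of detected or not detected over the 170 cells, which share their yield and their sets. For Wnt5a they were Pdgfra (0.58), a growth factor receptor of mesenchymal cells, Ackr3 (0.56), the scavenging receptor for Cxcl12, and the Cxcl12 assay Mm00457276_m1 (0.55). All 22 Wnt5a cells detected Pdgfra and all 22 detected Ackr3, while Pdgfra was detected in 52 cells, so 30 of these lacked a Wnt5a signal. Within collagen-high cells Pdgfra was in 100% of those with Wnt5a and 100% of those without, and Ackr3 in 100% and 92%. Pdgfra therefore did not separate Wnt5a cells within that class, and Ackr3 barely did. The Cxcl12 assay differed there, at 61.9% and 32%. Over the 95 high-yield cells Pdgfra (0.53) again led, followed by Angpt1 (0.52), the ligand of the Tek receptor, and the same Cxcl12 assay (0.49). For Wnt10b the leading assays were Tek (0.40), an endothelial and progenitor receptor, Cd55 (0.33), a complement inhibitor found in all 8 Wnt10b cells, and Tgfb3 (0.32). Cd55 was detected in 53 of the 170 cells. Over high-yield cells the same assays stood at 0.36 (Tek), 0.31 (Cd55) and 0.26 (Tgfb3). No assay reached 0.3 with Wnt1 or with Wnt3a.

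Within the 46 collagen-high cells, the 21 with Wnt5a had a median yield of 53 assays, against 49 in the 25 without it, and over the other 91 assays the median difference in share was 0 points. The genes below were picked from this ranking after their values were seen. Pdgfa, a mesenchymal growth factor, was detected in 61.9% of the cells with Wnt5a and 16% of those without. Angpt1 was in 71.4% and 28%, Acta2, the smooth muscle actin of contractile cells, in 61.9% and 24%, and Pdgfrb in 57.1% and 28%. Between Acta2 and Pdgfrb ranked Birc5 (38.1% and 4%), the growth factor receptor Igf1r (95.2% and 64%) and the Cxcl12 assay Mm00457276_m1 (61.9% and 32%). The collagen chains Col1a2 and Col3a1, like Pdgfra, were in 100% of both groups. Cxcr4, the signalling receptor for Cxcl12, was in 19.05% and 40%, Notch1 in 23.8% and 52%, and Ptprc in 57.1% and 76%. The mesenchymal markers other than Col1a1 stood at a median of 5 of 6 (4 to 6) in the cells with Wnt5a and 4 of 6 (4 to 6) in those without, and the leukocyte and myeloid markers other than Ptprc at 1 of 4 (0 to 2) in both.

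The Wnt5a Ct in detecting cells was earlier in EKO than in WT cells. In set A the 3 EKO cells read 18.5, 19.8 and 20.6, while the 7 WT cells read 19.6, 20.97, 22.2, 22.3, 22.3, 22.5 and 23.7. In set B the 9 EKO cells ranged from 15.9 to 19.6 with a median of 16.96, while the 3 WT cells read 20.2, 20.6 and 24.2. The genotypes overlapped in set A and did not overlap in set B, and the medians differed by -2.49 cycles (set A) and -3.62 cycles (set B). Pooled, the median was 17.6 ± 1.54 in 12 EKO cells and 22.3 ± 1.503 in 10 WT cells (SD over cells). The pooled difference was -4.68 cycles, beside a median of -0.81 over the 68 assays with at least 10 detecting cells per genotype, and it is larger than the difference within either set. It ranked 1 of the 68, with Col1a1 next at -4.40 cycles, and 56 of the 68 assays were earlier in EKO.

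Several other measures also differed between the genotypes in the Wnt5a cells, not all in the direction of Wnt5a. Of the EKO cells 9 of 12 came from set B and of the WT cells 7 of 10 from set A, so the pooled value mixes sets. In the same cells the median Rn18s Ct was 4.83 in EKO and 5.77 in WT, with 5.68 and 5.81 in set A and 4.73 and 4.90 in set B. Actb was at 9.21 in EKO and 10.5 in WT, B2m, a subunit of MHC class I, at 14.1 and 13.1, and Col1a1 at 8.57 and 9.38. Pdgfra was at 14.2 in EKO and 16.1 in WT, and relative to each cell's own Pdgfra Ct the Wnt5a difference was -2.28 cycles. Relative to the mean of Actb, B2m and Rn18s the Wnt5a difference was -3.91 cycles, and relative to the cell's own median over detected genes -3.55 cycles. The part of these measures in the result was not tested. Within collagen-high cells alone the Wnt5a difference was -4.61 cycles, in 11 EKO and 10 WT cells.

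**Figure D4:**
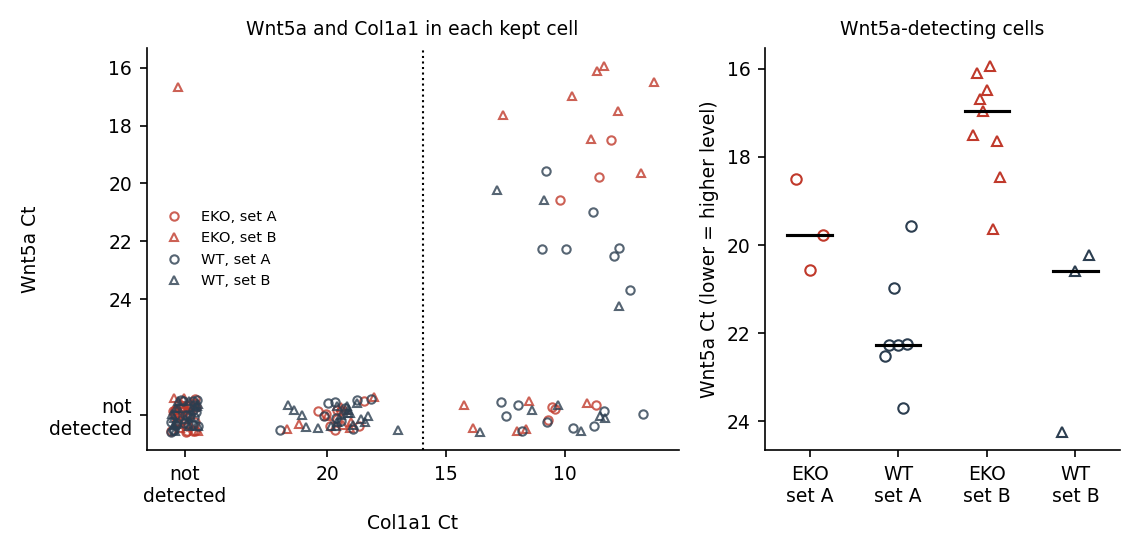
Left, the Wnt5a Ct of each kept cell against its Col1a1 Ct, both with higher levels toward the upper right, with undetected values scattered at the margins and the Col1a1 limit of 16 dotted; 21 of the 22 Wnt5a cells lie beyond it. Right, the Ct of the Wnt5a cells by genotype and set with medians as bars, at 19.8 in EKO and 22.3 in WT for set A and at 16.96 in EKO and 20.6 in WT for set B.

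In contrast to its Ct, the share of cells with Wnt5a had no common direction between genotypes. It was detected in 12 of 77 EKO cells (15.6%) and 10 of 93 WT cells (10.8%), and EKO minus WT was -6.89 points (set A) and 17.02 (set B). Of the collagen-high cells, 11 of 21 from EKO (52.4%) and 10 of 25 from WT recipients (40%) detected it, and of the high-yield cells 22.6% from EKO and 23.8% from WT recipients did.

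Ctnnb1 and Wnt3a met the size rule between genotypes among all kept cells. EKO cells detected Ctnnb1 in 38 of 77 (49.4%, interval 37.8 to 60.995%), against 28 of 93 WT cells (30.1%, interval 21.03 to 40.5%), and the excess was 17.5 points (set A) and 21.1 (set B). The filter on yield left out 19 EKO and 3 WT cells, none of which detected Ctnnb1. Without this filter the Ctnnb1 shares were 39.6% in EKO and 29.2% in WT, which is 10.4 points. For Wnt3a 59 of 77 EKO cells (76.6%, interval 65.6 to 85.5%) stood against 59 of 93 WT cells (63.4%, interval 52.8 to 73.2%). Of all 96 assays 20.8% met the rule as higher in EKO and 0% as lower, and 0 of the 5 genes met it as lower. The median difference of all assays was 5.70 points and that of the 5 genes 4.83. Yield moved with genotype among kept cells (medians 34 in EKO and 21 in WT). Both genotypes were also weighted to the same spread over terciles of yield within each set, and yield could still differ inside a tercile. EKO minus WT was then 9.62 points for Ctnnb1 (43.7% in EKO, 34.1% in WT) and 14.2 points for Wnt3a (76.9% in EKO, 62.7% in WT).

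Among kept cells the Wnt3a share of WT set A stood apart from the other 3 groups. Its share was 76.9% in EKO and 52.1% in WT cells of set A, and 76.3% in EKO and 75.6% in WT cells of set B. Low-yield cells stood at 13 of 14 in EKO and 12 of 24 in WT for set A, and at 8 of 10 in EKO and 23 of 27 in WT for set B. In high-yield cells the share was 71.7% in EKO and 57.1% in WT (set A 13.8 points, set B 13.9). The median Ct of Wnt3a was 20.5 ± 2.38 in EKO and 20.6 ± 1.54 in WT cells (n = 59 each), a difference of less than the SD.

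For Ctnnb1 the genotype difference varied with the yield of the cells taken. Among high-yield cells the share was 71.7% in EKO and 66.7% in WT (set A 13.5 points, set B -4.37). Within that range, 10 of 23 EKO cells and 7 of 13 WT cells detected it at 24 to 39 assays, and 28 of 30 EKO cells (93.3%) and 21 of 29 WT cells (72.4%) at 40 or more. Collagen-high cells, nearly all in that last range, detected it in 19 of 21 EKO (90.5%) and 18 of 25 WT cells (72%). The intervals of the genotypes overlapped in each of these strata. Its median Ct was 20.3 ± 2.37 (16.7 to 29.3) in 38 EKO cells and 20.4 ± 1.07 (17.4 to 22.2) in 28 WT cells, so the range in WT cells lay within that in EKO cells.

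Wnt10b went the other way, in few cells: 2 of 77 EKO (2.60%) and 6 of 93 WT cells (6.45%), which is -3.21 points (set A) and -4.44 (set B). Among high-yield cells it was at 3.77% in EKO and 14.3% in WT, and Wnt10b then met the size rule as lower and Wnt3a as higher, 1 gene each way. In that population 4.17% of 96 assays met the rule as higher in EKO and 11.5% as lower. Wnt1 was read in 2 of 77 EKO cells, against 2 of 93 WT cells, and a difference was not detectable with so few cells.

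**Figure D5:**
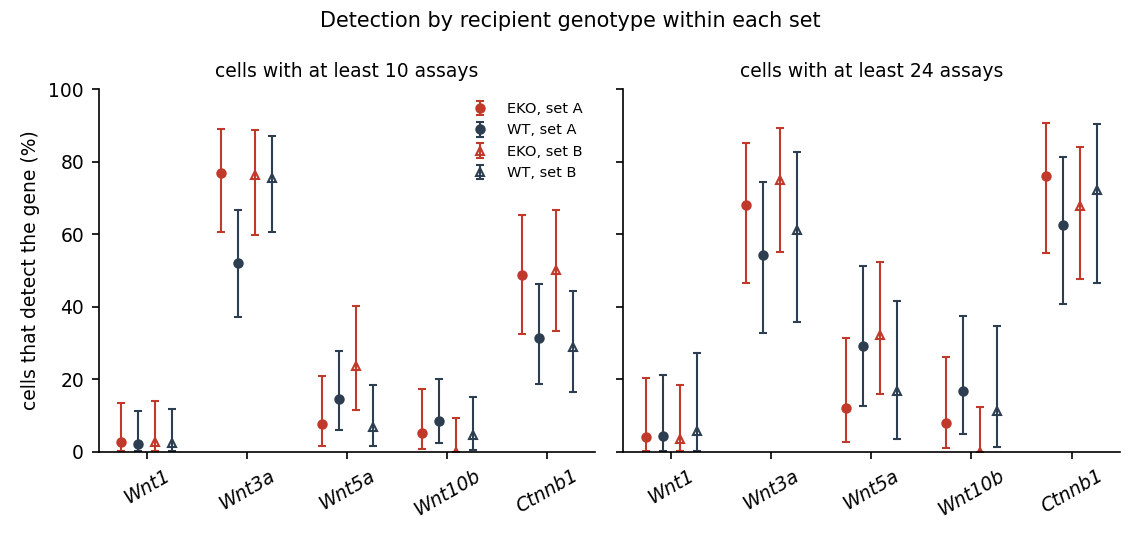
Points give the percentage of EKO and WT cells that detect each gene in sets A and B, with exact 95% intervals, for cells with at least 10 assays (left) and at least 24 (right). On the left Wnt3a is at 52.1% in WT cells of set A and above 75% in the other 3 groups, and Ctnnb1 is higher in EKO in both sets, while on the right its sets differ in sign.

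Cells that detected several ligands were uncommon. Of the 170 cells, 43 detected none of the 4 ligands, 103 detected 1, 23 detected 2 and 1 detected 3, and 118 of the 170 detected Wnt3a. Wnt5a and Wnt10b met in 3 cells, and Wnt1 and Wnt5a in 0. Ctnnb1 was found in 21 of the 22 Wnt5a cells (95.5%, 77.2 to 99.9%), all of them with 40 or more assays, against 28 of the 37 cells of that yield without Wnt5a (75.7%, 58.8 to 88.2%), and these intervals overlapped. In high-yield cells it was found in 43 of 62 with Wnt3a (69.4%) and in 23 of 33 without it (69.7%).

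The panel holds 0 of 47 listed Wnt receptors, transducers, antagonists and other ligands, so receipt of a Wnt signal could not be read from it. Of 16 genes described as beta-catenin targets in some cell types, 7 were measured: the cell cycle gene Ccnd1, the growth regulator Myc, the adhesion receptor Cd44, the Notch ligand Jag1, the angiogenic factor Vegfa, the telomerase subunit Tert and the survival gene Birc5. Between genotypes, 2 of the 7 met the size rule as higher in EKO, Myc at 16.2 points and Jag1 at 10.96, beside 20.8% of all assays as higher and 0% as lower. The median of the 7 was 7.02 points beside 5.70 for all assays. In high-yield cells 0 of the 7 met it in either direction, beside 4.17% of all assays as higher and 11.5% as lower, and their median was -0.76 points beside -0.07 for all assays. Myc there differed by -0.22 points and Jag1 by -0.45.

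Among high-yield cells Myc was detected in 86.4% of the 66 with Ctnnb1 and 44.8% of the 29 without. Ccnd1 was in 37.9% and 13.8%, Jag1 in 56.1% and 27.6%, Vegfa in 66.7% and 51.7%, Birc5 in 33.3% and 24.1%, Tert in 13.6% and 6.90%, and Cd44 in 95.5% and 96.6%. The median of these 7 differences was 14.9 points beside 10.2 over all 91 other assays, and median yield was 51 in the cells with Ctnnb1 and 33 in those without. At 40 or more assays, with 49 cells with Ctnnb1 and 10 without, the list stood at 6.33 points beside 5.92. Myc was then at 95.9% and 90%. Myc (0.72), the transcription factor Runx1 (0.72) and the pluripotency factor Klf4 (0.65) had the highest phi with Ctnnb1 over kept cells, and Myc (0.43), Runx1 (0.40) and the integrin Itga5 (0.36) over high-yield cells. Cdh5, an endothelial cadherin that binds beta-catenin, was the 1 of 4 listed cadherins on the panel, detected in 16.7% of the high-yield cells with Ctnnb1 and 3.45% of those without.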

How the data were processed

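The authors deposited 1 table of raw Ct values, with a row per TaqMan assay and a column per cell, from cells sorted as lineage-negative and GFP-positive per the labels. Its unit, unnamed there, was read from the values, which run from 4.49 to 40. The labels used here give no instrument, threshold or preamplification. Columns were matched to genotype by cell title, and the letter of the title was taken as the set. Of the 96 names, 88 matched a symbol of the RefSeq GRCm38.p6 gene table, 5 a synonym, and 3 (Dppiv, Fox03, Rn18s) were kept as written; 0 columns were left unused.

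The 22 cells under 10 assays (19 EKO, 3 WT) were left out except from values by yield or over all 192 cells. Shares carry exact Clopper-Pearson intervals, a share of 0 the limit from 3 counts, and levels the median Ct with the SD over cells, not normalized. A pooled level difference required 10 detecting cells per genotype; within-set medians are given at any number. Cells are no replicates, so no test was run. Members, lists and marker sets were chosen with earlier results of these data known. Named beyond the members were all measured beta-catenin targets, cadherins and haematopoietic progenitor markers. Also named were, per member, the 3 assays of highest phi if at least 0.3 (among those in 5% to 95% of cells). Col1a1 and Ptprc define the classes, and Actb, B2m and Rn18s are reference genes. Pdgfa, Acta2, Igf1r, Pdgfrb, Col1a2, Col3a1, Cxcr4, Notch1 and Sox2 were chosen after their values were seen. Alternatives changed the Ct limit (35, 30, 28), cell filter, Col1a1 limit (14, 18), set, yield weights and reference. Functions were tested on simulated data. Python 3.11.15, NumPy 2.4.6, pandas 2.3.3, SciPy 1.17.1 and matplotlib 3.10.9 were used.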

Additional observations from a re-analysis of the deposited data

Results flagged for a closer look

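Of the 22 cells with under 10 assays, 16 (72.7%) detected Wnt3a. This is listed because the comparisons by genotype and by class leave these cells out, while the values by yield include them. Of the 22, 19 were from EKO recipients. Their median yield was 7 assays.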

How the results depend on the processing

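Of 123 alternative values of the share and Ct differences, 107 stayed within counting error or the SD, 15 moved beyond it and 1 reversed. A reversal was counted only for share differences that had met the size rule and for the Wnt5a Ct. Of the 123, 109 kept their sign, so the sign also changed among values counted as within error or moved. All 20 alternatives for the differences by yield stayed within error. EKO minus WT was 24.8 points for Wnt3a and -6.89 for Wnt5a in set A alone, and 0.76 for Wnt3a and -4.44 for Wnt10b in set B alone. With at least 24 assays it was -1.17 for Wnt5a, -10.5 for Wnt10b and 5.03 for Ctnnb1. Over its 9 alternatives Ctnnb1 ran from 5.03 to 21.1 points, Wnt3a from 0.76 to 24.8, Wnt10b from -10.5 to -2.84, Wnt5a from -6.89 to 17.02 and Wnt1 from -0.99 to 0.48. Collagen-high minus Ptprc was 8.70 points for Wnt1 in set A and 0.90 for Wnt10b in set B. Against all Ptprc cells it was 33.9 for Wnt5a and 30.4 for Ctnnb1, and with at least 24 assays 20.9 for Ctnnb1. With at least 40 assays, an alternative added after seeing the data, it was 6.67 for Wnt1, 2.22 for Wnt10b and -20 for Ctnnb1, which reversed, and the cause was not tested. That alternative holds only 9 Ptprc cells. The Wnt5a Ct difference ran from -4.68 to -2.28 cycles over 6 alternatives, the last, relative to Pdgfra, also added later. Ct differences for Wnt1 and Wnt10b, and for Wnt5a within 1 set, were not run as alternatives, as fewer than 10 cells of a genotype detected the gene. No paired analysis was possible because no result comes from a test and cells carry no replicate number that pairs genotypes. With 4 Wnt1 and 8 Wnt10b cells, the number of cells limits any statement on these genes.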

Other observations

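The 9 Wnt5a cells of EKO set B included the cells numbered 70, 71, 72 and 73, which are consecutive, with Wnt5a at Ct 16.7, 16.96, 16.5 and 15.9. Cell 70 is the Wnt5a cell in which Col1a1 was not detected, and its Actb Ct of 6.01 was the earliest among the 22 Wnt5a cells. In cell 71 Ctnnb1 was read at Ct 29.3, the latest Ctnnb1 value of any kept cell.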
